A study of Bos taurus with 15 samples.

Results

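The 31 genes described here encode the proteins of the complement system: its components, the proteins that hold it in check and the receptors that read its products. They were found among the array probes by gene symbol, gene number, accession or probe description. All 31 had a probe, 32 probes in all, and 25 of the genes gave enough signal to be tested among the 12807 genes tested on the whole array. The arrays carried total RNA of testis from 15 cattle, called cows in the labels, with 1 animal on each single-colour Agilent array. The 7 controls received no treatment, and the 8 treated animals were given prednisolone, a synthetic glucocorticoid, orally. Each received 30 mg daily, and treatment lasted 35 days. The tissue was collected at slaughter, and breed and age are not given in the sources used here. The animals carry numbers, 17, 18 and 20 to 24 for the controls and 25 to 32 for the treated animals, and no number is shared between the groups.

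Complement is a cascade of plasma proteins in which each activated protease cleaves the next. The classical pathway starts when C1q, carrying the proteases C1r and C1s, binds antibody or a damaged surface; the lectin pathway starts when ficolins or collectins carrying MASP proteases bind sugars; the alternative pathway amplifies both through C3, factor B and factor D. All routes cleave C3 and then C5, and the terminal proteins C5b to C9 form a pore in the target membrane. Most circulating complement is made by the liver, while macrophages, fibroblasts and other cells make part of it in tissues. Host cells, sperm among them, carry membrane regulators such as CD46, CD55 and CD59 that stop complement on their own surface. Glucocorticoids act through a nuclear receptor that changes the transcription of many immune genes.

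A level below is the log2 processed signal of a probe minus the 75th percentile of its array, so 0 is the signal at that percentile. A difference of 1 on this scale is a 2-fold difference. Probes differ in how well they bind, so levels are compared between animals for 1 gene and never between genes. In bulk tissue, fewer cells of a type and less RNA per cell cannot be told apart.

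Of the 15 arrays, 14 had 82.2% to 89.9% of their probes well above background, while the array of prednisolone 30 had 36.5%, and its 75th percentile was 49.8 intensity units against 1220 to 2780 on the others. The values that the authors deposited for this animal did not follow its scanner file (gene-centred r = 0.0705, against 0.7809 to 0.9591 on the other arrays). All 8 germ-cell, 5 Sertoli-cell and 5 Leydig-cell marker genes listed passed the background rule. Control 17 stood apart from the other controls in connective-tissue genes, as described with the complement genes below. Group differences are therefore given with all 15 animals and without control 17 and prednisolone 30.

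In the comparison of treated with control animals, no complement gene passed the test: 0 of 25 had an adjusted p under 0.05 in limma, a linear model fitted to all tested probes, and 0.0% of the 12807 genes did. The smallest adjusted p was 0.885, for the complement genes and for all genes. At an unadjusted p under 0.05, 2 of the 25 complement genes passed, C8G and CD59, against 337 of all genes, which is 2.63%. The groups overlapped in all 25 genes. Over the whole array the groups did not overlap in 6 genes, or 0.0468%.

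The direction of the differences leaned one way with all animals and not without 2 of them. With all 15 animals, 19 of the 25 complement genes had a lower mean in the treated group, and the median difference was -0.28 on the log2 scale. Over all tested genes 50.1% were lower and the median was -0.001. Without control 17 and prednisolone 30, 10 of 25 were lower and the median was 0.04, beside 48.7% and 0.005 over all genes. Leaving out control 17 alone gave 11 of 25 and 0.08, and leaving out prednisolone 30 alone gave 19 of 25 and -0.17. So control 17 decided the count of lower genes, and no call was gained or lost: in the 13 animals 2 complement genes, C8G and C3AR1, had an unadjusted p under 0.05, as did 5.11% of all genes, and the smallest adjusted p was 0.913.

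**Figure D1:**
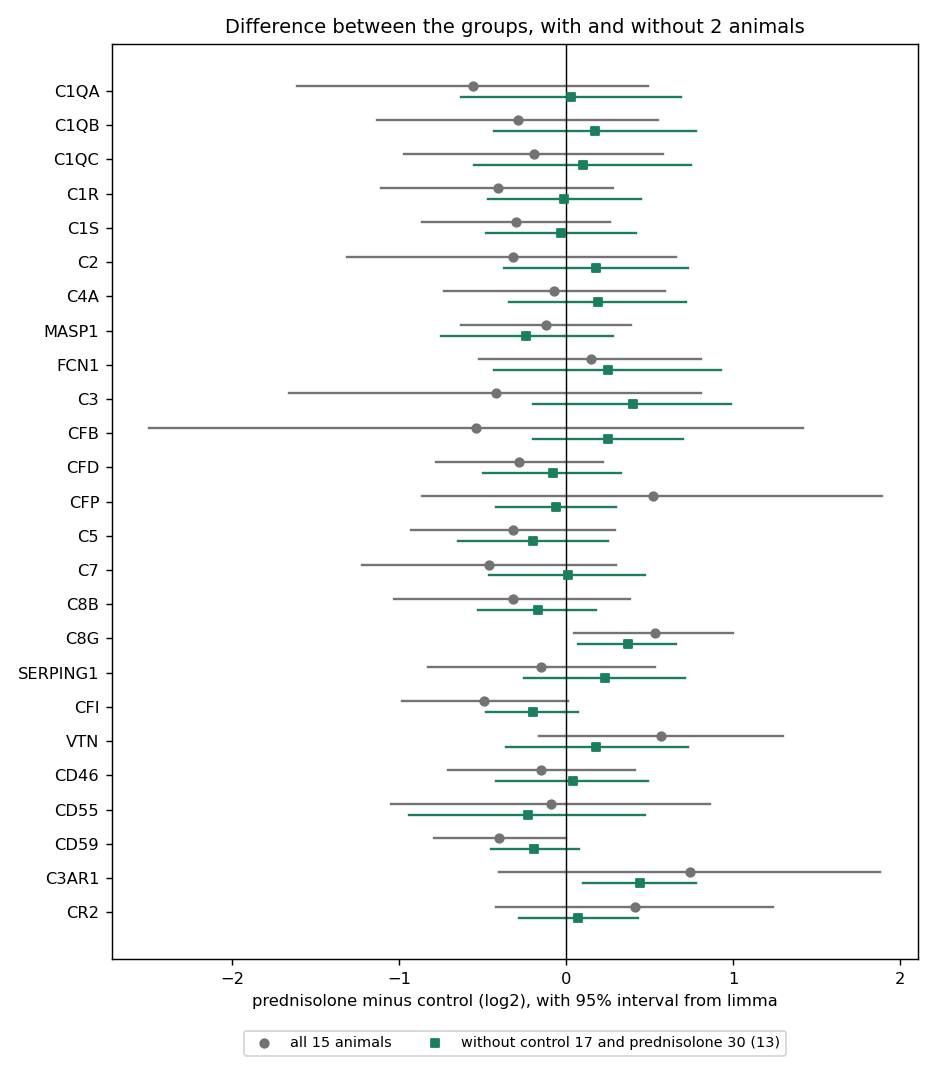
Differences between the groups for the 25 tested complement genes, prednisolone minus control on the log2 scale, with 95% intervals from limma. Grey circles use all 15 animals and green squares leave out control 17 and prednisolone 30; 19 of the circles and 10 of the squares lie below 0, and no gene passed the adjusted test in either.

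The classical pathway was represented by 7 tested genes: the 3 chains of C1q, its proteases C1R and C1S, and the next substrates C4A and C2. All 7 had a lower mean in the treated group, with differences from -0.56 to -0.07, and none passed the test. Without the 2 animals, 2 were lower and 5 higher, within -0.03 to 0.19.

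C1QA, the A chain of C1q, ranged from 1.37 over a median of 2.02 to 3.35 in the controls, and from -1.15 over a median of 1.81 to 2.83 in the treated animals. The highest value was that of control 17 and the lowest that of prednisolone 30, and the groups overlapped. The difference was -0.56 ± 0.50 (SE, 7 and 8 animals; limma adjusted p = 0.885) and 0.03 ± 0.31 in the 13 animals.

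C1QB, the B chain, had control levels from -0.56 over 0.17 to 2.10 and treated levels from -1.14 over -0.04 to 0.97, with a difference of -0.29 ± 0.40 (SE) and 0.17 in the 13 animals. C1QC, the C chain, had control levels from -1.28 over 0.05 to 1.83 and treated levels from -0.94 over -0.10 to 0.70, with a difference of -0.19 ± 0.37 (SE) and 0.10 in the 13 animals. For all 3 chains control 17 was the highest animal, and the values of the groups lay over each other.

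C1R, the protease that activates C1s, had control levels from -1.28 over -0.83 to 0.58 and treated levels from -2.47 over -1.05 to -0.05. C1S, the protease that cleaves C4 and C2, had control levels from 1.99 over 2.43 to 3.62 and treated levels from 1.61 over 2.40 to 3.11. Again control 17 was the highest and prednisolone 30 the lowest animal for both. The differences of -0.41 ± 0.33 and -0.30 ± 0.26 (SE) became -0.01 and -0.03 in the 13 animals.

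C2, which provides the protease of the classical C3 convertase, differed by -0.32 ± 0.47 (SE), and by 0.18 in the 13 animals. C4A, one form of C4, the other part of that convertase, differed by -0.07 ± 0.31 (SE), and by 0.19 in the 13 animals. Near-identical copies of C4 may bind the same probe, so the C4A value may be that of more than 1 gene.

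Of the lectin pathway, MASP1 and FCN1 were tested. MASP1, a protease that starts this pathway, had a difference of -0.12 ± 0.24 (SE). FCN1, a ficolin made by myeloid cells, had 0.15 ± 0.31 (SE). Both kept their sign in the 13 animals, at -0.24 and 0.25, and neither was near the threshold. A second MASP1 probe was well above background on 6 control and 6 treated arrays and was not tested. MASP2, the protease that cleaves C4 and C2 in this pathway, was well above background on 2 control arrays and 1 treated array, so it was not tested.

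C3 and the alternative loop were covered by C3, CFB, CFD and CFP. C3, the protein on which the pathways converge, had control levels from -2.72 over -1.74 to 2.13 and treated levels from -3.50 over -1.56 to -0.47. CFB, factor B, the protease of the alternative C3 convertase, had control levels from -5.35 over -4.69 to 2.70 and treated levels from -4.98 over -4.27 to -2.30. In both genes the top control value belonged to control 17, and the other 6 controls ended at -0.83 for C3 and -4.16 for CFB.

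The C3 difference was -0.42 ± 0.58 (SE) with all animals and 0.40 ± 0.28 without the 2, and the CFB difference was -0.54 ± 0.93 (SE) and 0.25 ± 0.21. CFD, the protease that activates factor B, ran from -0.26 over 0.29 to 1.48 in controls and from -0.18 over 0.13 to 0.82 in treated animals. Its difference was -0.28 ± 0.24 (SE), and -0.08 in the 13 animals, with overlapping groups. CFP, properdin, which stabilises the alternative convertase, differed by 0.52 ± 0.65 (SE); prednisolone 30 had -0.52, the next treated animal -5.25, and in the 13 animals the difference was -0.06.

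In the terminal pathway C5, C7, C8B and C8G were tested. C8G, the small lipocalin-like chain of C8, had the smallest unadjusted p of the complement genes. Its control levels ran from 2.18 over 2.67 to 2.77 and its treated levels from 2.53 over 2.97 to 4.36. Of the 8 treated animals 7 were above the control mean of 2.55, and the top value was that of prednisolone 30. The difference was 0.53 ± 0.23 (SE; 95% interval 0.05 to 1.0; unadjusted p = 0.0334, limma adjusted p = 0.885). In the 13 animals it was 0.37 ± 0.14 (95% interval 0.07 to 0.66; unadjusted p = 0.018, limma adjusted p = 0.913), so it did not pass over all genes in either.

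C7, which anchors the growing pore complex in the membrane, ran from -1.73 over -1.02 to 0.89 in controls and from -2.54 over -1.20 to -0.58 in treated animals. Control 17 was the highest and prednisolone 30 the lowest animal. The difference was -0.46 ± 0.36 (SE; unadjusted p = 0.219, limma adjusted p = 0.885) and 0.01 ± 0.22 in the 13 animals.

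C5, whose cleavage releases the inflammatory peptide C5a, had control levels from -0.95 over -0.37 to -0.03 and treated levels from -2.19 over -0.77 to -0.04. C8B, the beta chain of C8, had control levels from -5.68 over -4.99 to -3.02 and treated levels from -5.57 over -5.27 to -4.10. The groups overlapped in both genes; prednisolone 30 was lowest for C5 and control 17 highest for C8B. The differences were -0.32 ± 0.29 and -0.32 ± 0.33 (SE), and -0.20 and -0.17 in the 13 animals. C6 and C9, the other pore proteins with C7, were well above background on 0 of 15 arrays, and C8A, the alpha chain of C8, on 3 control and 4 treated arrays. These 3 genes were not tested.

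Of the regulators, 6 were tested: SERPING1, CFI and VTN, which are secreted, and CD46, CD55 and CD59, which sit on the cell membrane. CFI, factor I, the protease that cuts C3b and C4b into inactive pieces, had control levels from -0.98 over -0.71 to 0.85 and treated levels from -1.39 over -0.90 to -0.70. All 8 treated animals were below the control mean of -0.49, which control 17 raised from -0.72. The difference was -0.49 ± 0.24 (SE; 95% interval -0.98 to 0.01; unadjusted p = 0.0556, limma adjusted p = 0.885) and -0.20 ± 0.13 (limma adjusted p = 0.913) in the 13 animals.

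CD59, which blocks the insertion of C9 into the membrane, had control levels from -2.17 over -1.81 to -0.87 and treated levels from -2.60 over -2.04 to -1.66. The groups overlapped in the stretch from -2.17 to -1.66, which held all controls but 2. The difference was -0.40 ± 0.19 (SE; unadjusted p = 0.0491, limma adjusted p = 0.885) and -0.19 ± 0.12 (unadjusted p = 0.155) in the 13 animals.

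VTN, vitronectin, a plasma and matrix protein that binds the terminal complex, ran from -3.94 over -2.09 to -1.91 in controls and from -2.89 over -1.79 to -0.92 in treated animals. Here control 17 was the lowest and prednisolone 30 the highest animal. The difference was 0.57 ± 0.34 (SE; unadjusted p = 0.116, limma adjusted p = 0.885) and 0.18 ± 0.26 in the 13 animals.

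SERPING1, the C1 inhibitor that inactivates C1r, C1s and the MASP proteases, had control levels from 1.21 over 1.78 to 3.35 and treated levels from 0.79 over 1.71 to 2.78. Its groups overlapped over most of their range, with a difference of -0.15 ± 0.32 (SE) and 0.23 in the 13 animals. CD46, a cofactor of factor I that is also found on the inner acrosomal membrane of sperm, differed by -0.15 ± 0.27 (SE), and by 0.04 in the 13 animals. CD55, which speeds the decay of the C3 convertases, differed by -0.09 ± 0.45 (SE), and by -0.23 in the 13 animals. C4BPA, the alpha chain of the C4b-binding protein, was well above background on 5 control and 6 treated arrays and was not tested.

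Of the receptors, C3AR1, the receptor of the peptide C3a, had control levels from -4.44 over -3.80 to -2.34 and treated levels from -3.54 over -3.42 to 0.72. All 8 treated animals were above the control mean of -3.59, but the groups overlapped. The difference was 0.74 ± 0.54 (SE; 95% interval -0.40 to 1.88; unadjusted p = 0.189, limma adjusted p = 0.885). In the 13 animals it was 0.44 ± 0.16 (95% interval 0.10 to 0.78; unadjusted p = 0.0155, limma adjusted p = 0.913).

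The C3AR1 value of prednisolone 30 came from 2 spots of 240 and 28.1 intensity units, which differed more than the paired spots of the other treated animals did. CR2, the receptor of C3 fragments on B cells and follicular dendritic cells, differed by 0.41 ± 0.39 (SE), and by 0.07 in the 13 animals. C5AR1, the receptor of C5a, was well above background on 0 of 15 arrays.

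**Figure D2:**
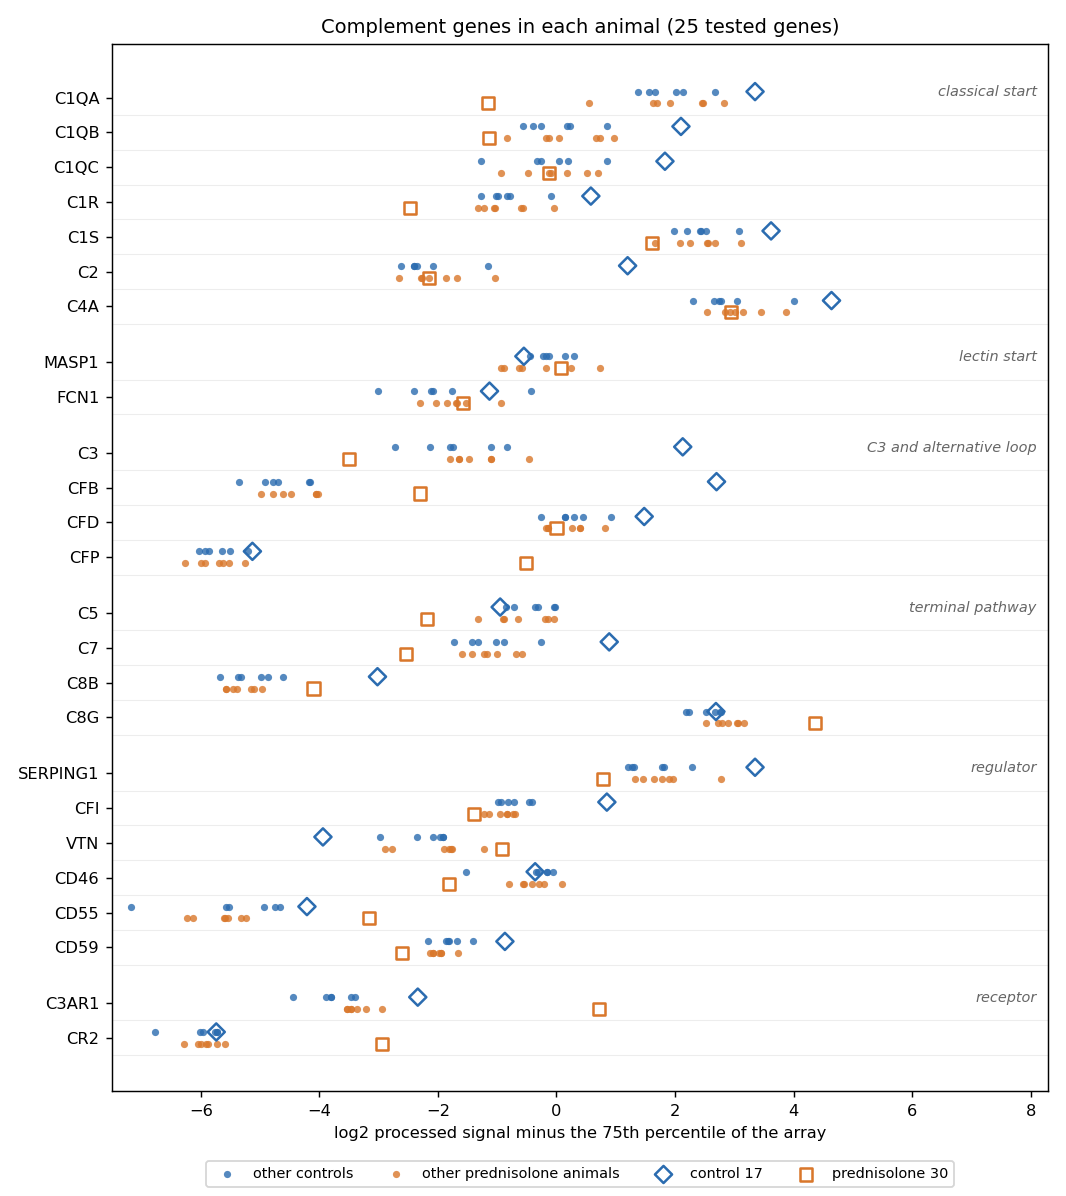
Level of each of the 25 tested complement genes in each animal, as log2 processed signal minus the 75th percentile of the array, with controls in blue above and treated animals in orange below. Open diamonds are control 17, the highest control in 18 genes, and open squares are prednisolone 30, the lowest treated animal in 11 genes and the highest in 8.

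Control 17 stood far from the other controls in many complement genes. It was the highest control in 18 of the 25 complement genes, against 24.1% of all tested genes. It lay at least 1 log2 unit above the mean of the other 6 controls in 16 of the 25, against 9.0% of all genes. These are counts for 1 animal, with no test.

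CFB differed most in control 17. Its 2 spots read 14100 and 15400 intensity units in control 17, and the spots of the other 14 animals lay between 7.84 and 176. On the log2 scale control 17 was at 2.70 and the other controls at -4.68 ± 0.46 (SD, n = 6), a gap of 7.38 or 167-fold. Among the 12807 tested genes this was the largest gap of control 17 above the other controls. The gap in the authors' deposited table was also 7.38.

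C3 followed, at 2.13 against -1.72 ± 0.69 (SD, n = 6) in the other controls, a gap of 3.85 or 14.4-fold that ranked 16 of the 12807 genes. C2, at 1.20 against -2.17 ± 0.53 (SD, n = 6), had a gap of 3.37 or 10.3-fold and ranked 28. Its spots read 5120 and 5260 in control 17, and those of the other controls lay between 282 and 672. In these 3 genes control 17 was far outside the range of the other controls.

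Other complement genes were high in control 17 as well. Of the terminal proteins, C8B was 2.12 and C7 2.0 above the other controls. The C1q chains C1QB, C1QC and C1QA were 2.09, 1.96 and 1.44 above them. SERPING1 was higher by 1.74, C4A by 1.72, CFI by 1.56, C3AR1 by 1.46, C1R by 1.41, CD55 by 1.23, CFD by 1.20 and C1S by 1.18. Between these and 0 were CD59, FCN1, CFP, CR2, C8G and CD46, with gaps from 0.92 down to 0.07.

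In 3 complement genes control 17 was below the mean of the other controls: MASP1 with a gap of -0.46, C5 with -0.56 and VTN with -1.74. The gap of VTN, a gene expressed mainly by the liver, ranked 12780 of the 12807 genes. The hepatocyte genes did not go one way. FGB, FGA and AHSG were below every other control in this animal, with gaps of -1.04, -0.70 and -0.70. APOA1 was above every other control, with a gap of 0.48, and ALB was 0.39 above the other controls' mean.

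**Figure D3:**
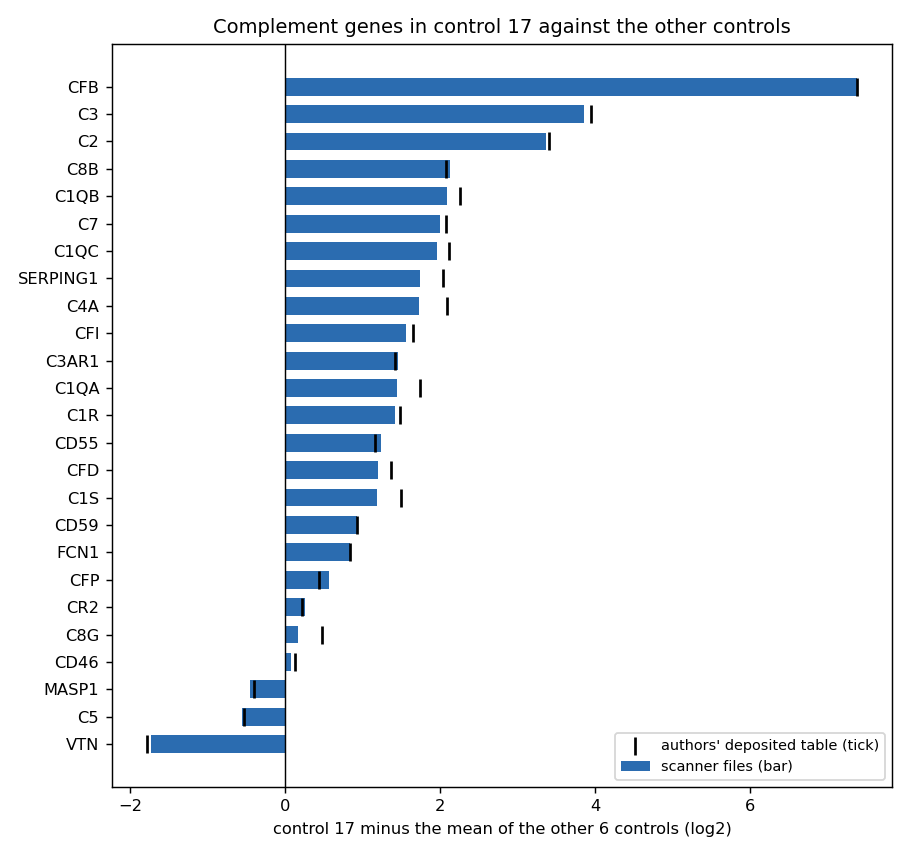
Control 17 minus the mean of the other 6 controls for the 25 tested complement genes, on the log2 scale, from the scanner files as bars and from the authors' deposited table as ticks. CFB reaches 7.38 in both, C3 and C2 follow at 3.85 and 3.37 in the bars, and VTN is lowest at -1.74.

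Markers of other cells moved with the complement genes in control 17. The mean centred level of the 25 complement genes was 1.29 in this animal and -0.35 to 0.33 in the other controls. The mean of the 6 fibroblast and matrix genes was 2.06 against -0.18 to 0.49, with COL1A1, COL1A2 and COL3A1 2.49, 2.52 and 2.55 above the other controls. The 5 peritubular and smooth-muscle genes were at 1.56 against -0.47 to 0.42, and the 6 endothelial genes at 0.83 against -0.39 to -0.01. Of the endothelial genes VWF went the other way, with a gap of -0.29, and the others had gaps from 1.06 to 1.77.

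The 7 tested macrophage genes were at 0.67 against -0.18 to 0.27, but not as a block. CD163, MSR1, CD68 and CSF1R were 1.82, 1.46, 1.39 and 1.27 above the other controls, while CD14 and AIF1 had gaps of -0.78 and -0.60. The germ-cell list was lowest of the controls in control 17, at -0.43 against -0.24 to 0.30, but not as a block either. SYCP3 was 1.3 above the other controls and PRM1 had a gap of -0.01. The other germ-cell genes had gaps from -1.28 for GAPDHS to -0.33 for DDX4. The Sertoli and Leydig lists were within the range of the other controls as lists. Among the Sertoli genes WT1 was 1.43 above the other controls' mean, and AMH had the lowest gap, -0.29. The part of these cells in the complement levels of control 17 was not tested.

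**Figure D4:**
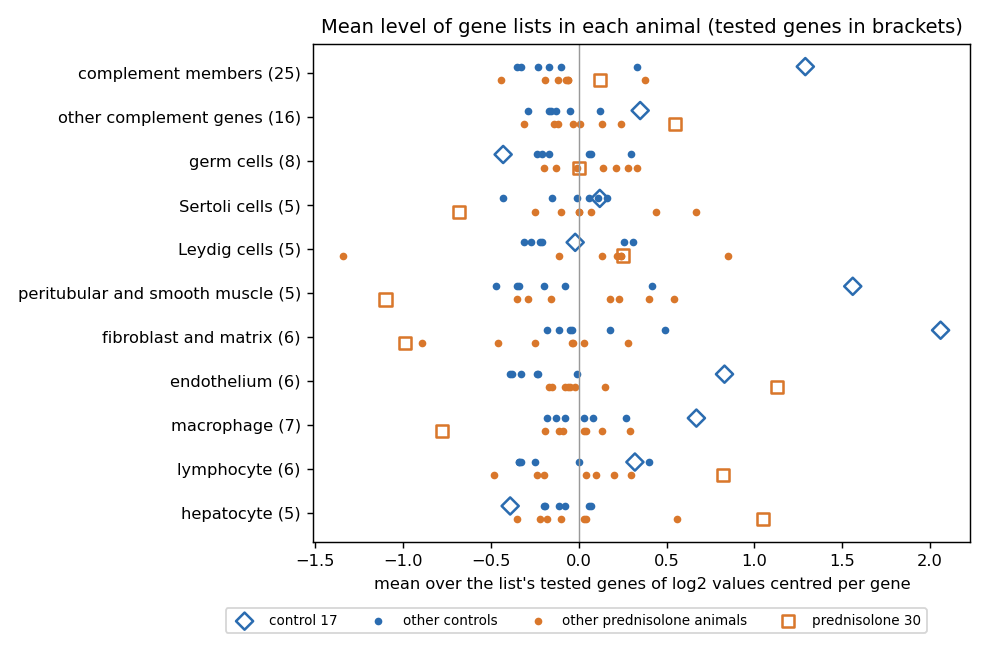
Mean level of the complement genes and of marker lists in each animal, as the mean over the tested genes of log2 values centred per gene, for the lists with 5 or more tested genes (number in brackets). Control 17, the open diamond, is at 1.29 for the complement genes, 2.06 for fibroblast and matrix and 1.56 for peritubular and smooth muscle; prednisolone 30, the open square, is at -0.99 and -1.10 in the last 2.

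Prednisolone 30 behaved otherwise. Its widest gaps above the other treated animals, among the tested complement genes, were 5.24 for CFP and 4.08 for C3AR1. Its CFP spots read 110 and 11.0 intensity units. The authors' deposited table did not hold these gaps. There its log2 values were 5.46 for CFP (4.74 to 5.61 in the other treated animals) and 7.26 for C3AR1 (7.22 to 7.94). By its scanner file, prednisolone 30 was the lowest treated animal in 11 complement genes, against 45.5% of all genes, and the highest in 8, against 36.0%. As shares of the 25 complement genes, these counts were near the background of its array. On this array 15 of the 25 tested complement genes were well above background. C1R, C2, C3, C7, C8B, CD55, CD59, CFB, CR2 and VTN were the 10 that were not, and the C3 spots read 3.35 and 5.81 intensity units. Over all probes of this array, untested ones included, 36.5% were well above background. On each of the other 14 arrays 25 of 25 were. The test rule largely sets that count, since it asks for at least 7 arrays of a group well above background.

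The complement genes varied more between animals of 1 group than the typical gene did. Among the controls their median SD was 0.70, against 0.33 over all tested genes, and 23 of 25 were above the latter. Without control 17 it was 0.41 against 0.27, with 21 of 25 above. Among the treated animals without prednisolone 30 it was 0.43 against 0.26, with 19 of 25 above; with it, 0.59 against 0.48 and 20 of 25. In the 13 animals the SD ran from 0.24 for CFI to 0.94 for CD55 in the controls and from 0.16 for CD59 to 0.75 for C1QA in the treated animals. For CD55, control 23 was at -7.18, from spots of 24.2 and 5.71 intensity units, and the rest of these controls lay from -5.57 to -4.66.

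Particular animals held the ends of that spread in many genes at once. Without the 2 animals, control 24 was the highest control in 13 of the 25 complement genes, against 19.4% of all genes. Prednisolone 27 was the highest treated animal in 16, against 26.2%. Prednisolone 32 was the lowest in 12, against 12.4%. Control 24 and prednisolone 27 also had the highest fibroblast and matrix lists of their groups without the 2 animals, at 0.49 and 0.28, and the highest Leydig-cell lists, at 0.31 and 0.85. The same held for the peritubular and smooth-muscle lists (0.42 and 0.54), the Sertoli-cell lists (0.16 and 0.67) and the lymphocyte lists (0.40 and 0.30). In the germ-cell, macrophage, endothelial and hepatocyte lists it did not hold for both animals. Prednisolone 32 was lowest of all animals in the Leydig-cell list, at -1.34, and in the lymphocyte list, at -0.48. This animal was not low in the fibroblast and matrix list, at 0.03, or in the peritubular and smooth-muscle list, at 0.40. The part of these lists in the spread was not tested. Prednisolone 27 was alone on its slide and scan day, and its array had the highest 75th percentile, at 2780 intensity units. For prednisolone 27, animal and batch thus cannot be told apart. Control 24 shared its slide and scan day with control 21 only.

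Genes whose products form 1 complex or act on each other were compared across animals in 9 measured pairs of 12 listed. The other 3 pairs held an untested gene (C8A with C8B, C5 with C5AR1, C6 with C7). Each correlation has a two-sided permutation p from 100000 resamples, adjusted over the 9 pairs; the smallest p these resamples can give is 1e-05.

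The chains of C1q moved together. Across 15 animals, C1QA and C1QB had r = 0.89 and rho = 0.996 (permutation p = 2e-05 and 1e-05, adjusted 6e-05 and 3e-05). Across the 13 animals r was 0.974 and rho 0.995 (permutation p = 1e-05 for both, adjusted 9e-05 and 3e-05), and without the 2 of these farthest from the median r was 0.993. In the 13 animals both groups lay near 1 line: an animal with a higher A chain mostly had a higher B chain, whether treated or not. Prednisolone 30 lay off it, with levels of -1.15 for C1QA and -1.14 for C1QB.

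C1QB and C1QC had r = 0.927 and rho = 0.956 in the 13 animals (permutation p = 2e-05 and 1e-05, adjusted 9e-05 and 3e-05), and r = 0.897 without the 2 farthest. C1QA and C1QC had r = 0.898 and rho = 0.967 (permutation p = 4e-05 and 1e-05, adjusted 0.00012 and 3e-05), and r = 0.903 without the 2 farthest. With all 15 animals these pairs had r = 0.887 and 0.636. The 9 animals scanned on 1 day gave r = 0.883 for C1QA with C1QB, 0.873 for C1QB with C1QC and 0.585 for C1QA with C1QC (exact permutation p = 0.00289, 0.00327 and 0.107), and the 7 of them without control 17 and prednisolone 30 gave 0.961, 0.895 and 0.84.

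C1R went with C1S (r = 0.883, rho = 0.821 in 15 animals, permutation p = 1e-05 and 0.00031, adjusted 4.5e-05 and 0.000697; r = 0.783 in 13). C1R also went with SERPING1, its inhibitor (r = 0.902, rho = 0.793 in 15, permutation p = 1e-05 and 0.00075, adjusted 4.5e-05 and 0.00135; r = 0.825 in 13). In the 13 animals the adjusted permutation p was 0.00243 and 0.0013. By rho, at 0.725 and 0.681, both pairs passed there as well (adjusted permutation p = 0.0115 and 0.0188). Without the 2 farthest from the median of C1R, r was 0.457 and 0.522 and neither passed (adjusted permutation p = 0.231 and 0.182). Leaving out the ends of C1R also narrows its range, which can lower r, so the part of those animals in the relations cannot be told. Within the 1 scan day r was 0.879 and 0.936, and in 7 of its animals 0.588 and 0.64, which did not pass.

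C3 and CFB, the 2 parts of the alternative convertase, had r = 0.688 and rho = 0.521 in 15 animals (permutation p = 0.0559 and 0.0482, adjusted 0.0629 and 0.0724). In the 13 animals r was 0.792 and rho 0.764 (permutation p = 0.00113 and 0.00358, adjusted 0.00203 and 0.00805). Without the 2 farthest r was 0.601 (adjusted permutation p = 0.121). Within the scan day r was 0.764 in 9 animals and 0.951 in 7.

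C3 and CFI, factor I, which cuts C3b, had r = 0.817 and rho = 0.45 in 15 animals (permutation p = 0.00415 and 0.0938, adjusted 0.00747 and 0.106), but r = 0.08 and rho = 0.154 in 13. Without control 17 alone r was 0.432 (adjusted permutation p = 0.157), so the call rested on that animal. CFD with CFB had r = 0.676 and rho = 0.482 in 15 animals (permutation p = 0.021 and 0.072, adjusted 0.027 and 0.0926) and r = 0.513 in 13, which did not pass. Without control 17 alone its r was 0.135 (adjusted permutation p = 0.648), so this call rested on the same animal. Of all 15 animals, without the 2 farthest from the median of CFD (control 17 and control 24), its r was 0.108. Of the 13 animals, without the 2 farthest, its r was 0.286 (adjusted permutation p = 0.501). C3 with its receptor gene C3AR1 had r = -0.237 and rho = -0.118 in 15 animals and -0.045 and -0.143 in 13, none near the threshold.

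**Figure D5:**
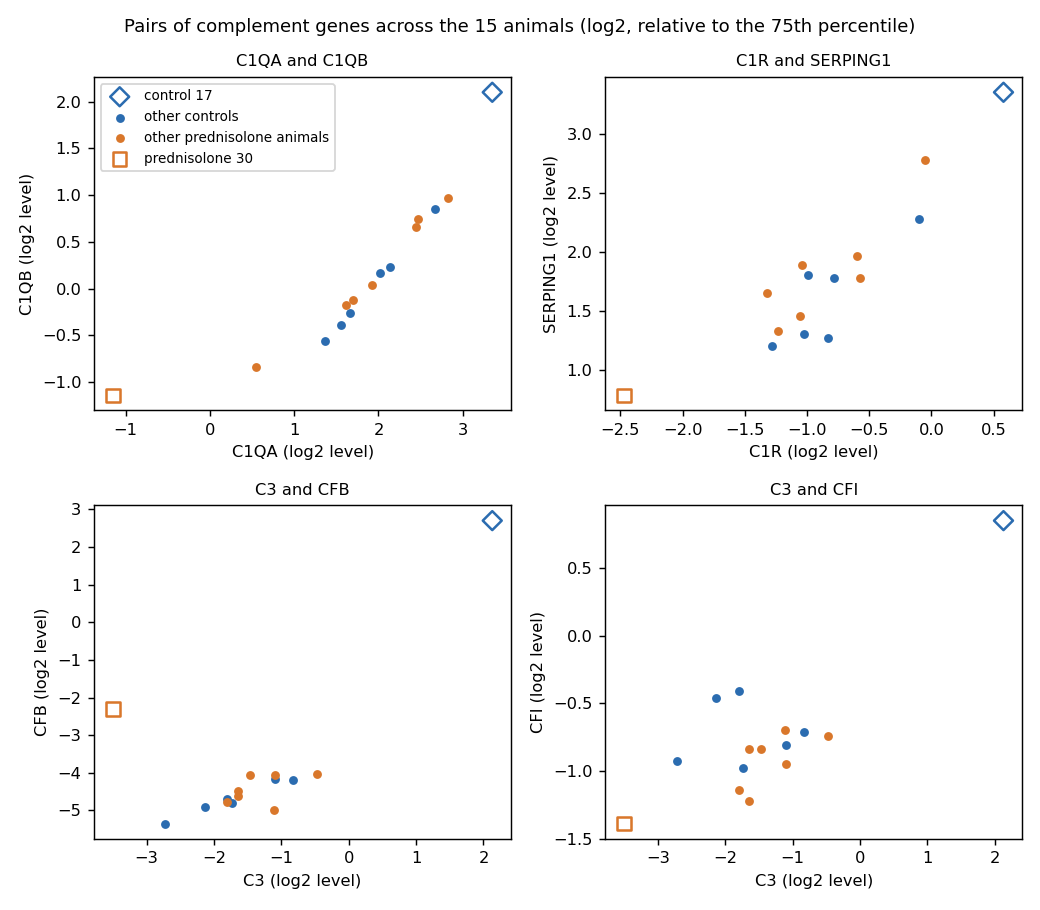
Levels of 4 pairs of complement genes in the 15 animals, on the log2 scale relative to the 75th percentile of the array, with controls in blue, treated animals in orange, control 17 as an open diamond and prednisolone 30 as an open square. C1QA and C1QB lie near 1 line in the 13 other animals (r = 0.974), while for C3 and CFI the r of 0.817 falls to 0.08 without the 2 open symbols.

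Some of the genes lie side by side in the genome. In the RefSeq gene order of assembly ARS-UCD2.0, no protein-coding gene starts between C2 and CFB, C1R and C1S, C1QA and C1QC, C8A and C8B, or CD55 and CR2, and 1 starts between C6 and C7. The neighbours C2 and CFB were both among the genes furthest above the other controls in control 17, with gaps of 3.37 and 7.38. The neighbours C1R and C1S had gaps of 1.41 and 1.18, and CD55 and CR2 gaps of 1.23 and 0.26. Neighbours thus had like gaps in some pairs and unlike ones in others.

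Complement genes outside the 31 gave no call either. Of 25 listed, among them CLU, the collectins and further C3 receptors, 22 had a probe and 16 were tested; 6 were lower and 10 higher in the treated group, none passed, and their median difference was 0.07. Without control 17 and prednisolone 30, 3 were lower and 13 higher, none passed, and the median was 0.10, a setting chosen after the data were seen. The smallest unadjusted p values with all animals belonged to CD93, CPN2, COLEC10 and CD5L. CD93, an endothelial and myeloid surface protein once described as a C1q receptor, differed by 0.44 ± 0.22 (SE; unadjusted p = 0.0587, limma adjusted p = 0.885), and by 0.60 ± 0.16 in the 13 animals (unadjusted p = 0.00151, limma adjusted p = 0.913). CPN2, the regulatory chain of the carboxypeptidase that inactivates C3a and C5a, differed by 0.30 ± 0.26 (SE), the collectin COLEC10 by 0.42 ± 0.36 (SE) and the macrophage protein CD5L by 0.26 ± 0.22 (SE). In the 13 animals these were 0.19, 0.01 and 0.06. In control 17, VSIG4, the complement receptor of tissue macrophages, and ITGB2, the beta chain of the C3 fragment receptors, were 1.94 and 1.60 above the other controls.

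Batches were looked at through slide and scan day, as the file headers give them. Within the 1 scan day that held both groups (3 controls and 6 treated animals), 19 of 25 complement genes were lower and the median was -0.35. Without control 17 and prednisolone 30, 8 of 25 were lower and the median was 0.24; this setting was chosen after the data were seen. In these 7 animals C3 differed by 0.89 ± 0.23 (SE) and CFB by 0.73 ± 0.24 (SE), both higher in the treated animals, with unadjusted p of 0.00325 and 0.0134. Their limma adjusted p values were 0.406 and 0.478, so neither passed. The controls left here were control 18 and control 23, the lowest of all controls in C3 (-2.14 and -2.72) and in CFB (-4.91 and -5.35). In this setting 1055 of the 12807 genes and 3 of the 25 complement genes had an unadjusted limma p under 0.05.

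The 6 genes with the smallest unadjusted p were also fitted with slide or scan day as a term and within batches, and none passed in limma. CFI was at -0.88 ± 0.33 (SE; unadjusted p = 0.0213, limma adjusted p = 0.928) with scan day as a term, -0.81 with slide as a term and -1.09 within slide 1, where control 17 was 1 of the 2 controls. Within scan day 1 without the 2 animals CFI was at -0.30. C7 was at -0.74 with scan day and -0.68 with slide, and CD59 at -0.53 and -0.49. C8G was at 0.48 and 0.45, VTN at 0.65 and 0.61 and C3AR1 at 0.43 and 0.56. Within slide 1 (2 animals a group) CD59 was at -0.68, C7 at -1.04, VTN at 0.63, C8G at 0.03 and C3AR1 at -0.38. Within slide 4 (1 control and 2 treated animals, prednisolone 30 among them) CFI was at -0.38, CD59 at -0.19, C7 at -0.15, VTN at 0.58, C8G at 1.09 and C3AR1 at 1.99.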

How the data were processed

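Total RNA of 15 bovine testes was hybridised to single-colour arrays. Per the file headers, the deposited scanner files came from Feature Extraction 9.5.1.1 and give each spot's brightness as intensity, background-subtracted and detrended per the series' design text. The authors also deposited a table of linear intensity values; the sources used here do not give its normalization, though the submitters' processing notes name R 2.11.1. Its scale was linear with column medians at a common level, and it was used as an alternative. Control spots were left out (42990 spots of 21475 probes kept), spots marked as outliers masked, and log2 processed signal set relative to each array's 75th percentile. A probe was tested when well above background on at least 7 arrays of a group (17411 probes). Probes were named through accession, gene number, symbol or description and the RefSeq table of ARS-UCD2.0 (16700 of 21475 named); predicted genes likened to C3, C4 or the C4b-binding protein were not counted as members. A gene was read through its tested probe with the highest mean. The 2 groups were tested two-sided with lmFit and eBayes (limma 3.58.1, R 4.3.3), with p-values adjusted by Benjamini-Hochberg over all tested probes. Scripts were tested on simulated data. The members and lists were chosen with earlier results of these data known. All 31 members are accounted for. The lowest, median and highest level of each group is given for the 6 with the smallest unadjusted p and for the tested members of the listed pairs. The number of arrays limits the precision. The limma p-values set a group difference against the spread between the animals used. The permutation p-values set a correlation against the same values with the animals shuffled. The array's build and probe sequences are not used here, so no coordinates or sequences are given. The alternatives were scaling, background correction, the deposited table, the filter on dim probes, slide or scan day as a block, array weights, the rule for several probes, and leaving out animals. The value of 1 further complement gene is not reported here.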

Additional observations from a re-analysis of the deposited data

Results flagged for a closer look

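In 52 sets of values (25 complement genes and their mean, in each group), 17 held an animal whose distance to its nearest neighbour took up an unusually large share of the range; chance gives about 2.6. Of these, 6 were control 17 as the highest control: CFB at 2.70 with the next control at -4.16, C3 at 2.13 (next -0.83), C2 at 1.20 (next -1.15), C8B at -3.02 (next -4.62), CFI at 0.85 (next -0.41), and the mean of the complement genes at 1.29 (next 0.33). A further 9 were prednisolone 30. It was the lowest treated animal for C3 at -3.50 and CD46 at -1.81. It was the highest for CFB at -2.30, CFP at -0.52, C8B at -4.10, C8G at 4.36, CD55 at -3.16, C3AR1 at 0.72 and CR2 at -2.94; its array had 36.5% of probes well above background. The remaining pair were control 18, the lowest control for CD46 at -1.53, and control 20, the lowest for CR2 at -6.78.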

How the results depend on the processing

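No complement gene and no other gene passed the adjusted test under any alternative run; leaving out prednisolone 28 and weighting arrays gave the smallest adjusted p over all genes, 0.157 and 0.0727. No paired analysis was possible because the groups share no animal numbers. The 19 complement genes with a lower value were 11 to 20 when 1 animal was left out, 10 without control 17 and prednisolone 30, 11 within slide 4, 11 in the authors' deposited table without control 17 and 8 within scan day 1 without the 2 animals; the last 2 settings were chosen after the data were seen. The median difference, -0.28, was -0.35 to 0.08 when 1 animal was left out and 0.24 within scan day 1 without the 2 animals. Array weights, which kept all 15 animals, gave 14 lower complement genes and a median of -0.03, beside 49.8% lower over all genes. With normexp 16 complement genes were lower. Over all genes the share that was lower, 50.1%, was 60.2% after quantile normalization, 59.5% after median centring, 37.1% with normexp and 43.4% with no filter on dim probes, and the complement median was -0.29, -0.34, -0.14 and -0.15.

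Single genes turned sign as follows, the cause not tested. Leaving out 1 animal gave ranges of -0.43 to 0.01 for C1QB, -0.43 to 0.09 for C1QC, -0.48 to 0.16 for C2, -0.22 to 0.17 for C4A, -0.68 to 0.13 for C3, -0.83 to 0.52 for CFB, -0.30 to 0.10 for SERPING1, -0.41 to 0.08 for CD55, -0.14 to 0.68 for CFP, -0.33 to 0.03 for CD46 and -0.05 to 0.39 for FCN1. Without control 17 and prednisolone 30 the values were C1QA 0.03, C1QB 0.17, C1QC 0.10, C2 0.18, C4A 0.19, C3 0.40, CFB 0.25, CFP -0.06, C7 0.01, SERPING1 0.23 and CD46 0.04. Array weights gave C1QA 0.01, C1QB 0.16, C1QC 0.09, C2 0.02, C4A 0.04, SERPING1 0.05 and VTN -0.03. With normexp C8B was 0.04, CD46 0.02 and CD55 0.02. In the deposited table CFP was -0.09 and CD46 0.07. With slide as a block C1QC was 0.05 and CD55 0.51. Both within scan day 1 and with the day as a block, FCN1 was -0.04 and CD55 0.47. Slide 1 (2 animals of each group) gave CFP -0.50, C5 0.14, CD46 0.39, C3AR1 -0.38 and CR2 -0.22. Slide 4 (1 control, assumed to vary like the treated animals, and 2 treated) gave C1QC 0.23, C2 0.34, C4A 0.40, C3 0.15, CFB 1.89, CFD 0.04, SERPING1 0.13 and CD55 2.83. Slides and days with 1 group gave no value.

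Of the 9 pairs, 7 passed by r with all animals and 5 by rho. For the pairs only control 17 and prednisolone 30 were left out singly: without control 17, 4 passed by r and 5 by rho, and without prednisolone 30, 8 and 7. Within scan day 1 without the 2 animals 4 passed by r, and 3 passed in the 13 animals without the 2 farthest from the median, both chosen after the data were seen. Without control 17 and without prednisolone 30, r was -0.246 and 0.928 for C3 with CFB, and -0.665 and 0.573 for C3 with C3AR1. The value of -0.665 (permutation p = 0.0318, adjusted 0.0572) kept prednisolone 30, whose C3 was not well above background. With both animals left out, r of that pair was -0.045. C3 with C3AR1 was 0.531 in the deposited table, 0.444 within scan day 1 without the 2 animals and 0.038 without the 2 farthest; C3 with CFI was -0.231 and -0.081 in the last 2. Signal over background limits the 6 untested genes and the array of prednisolone 30.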
